A study of Mus musculus with 6 samples.

Results

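Translation initiation and elongation factors, the proteins that bring messenger RNA, initiator tRNA and ribosomal subunits together and then carry the ribosome along the message, were followed in sorted mouse hematopoietic stem cells. The members were all probe sets of an Affymetrix mouse array that the annotation joined to 1 gene symbol starting with Eif or Eef, leaving out Eif2ak2, Eif2s3x and Eif2s3y, and which exceeded log2 4 on 3 or more of the 6 arrays. The rule found 148 probe sets of 56 genes and kept 110 probe sets of 50 genes, of 19613 probe sets and 9460 genes tested in all. Of the other 38 probe sets, 29 lay at or under log2 4 on all 6 arrays and 9 were above it on 1 or 2. The 6 genes left with no kept probe set were Eef1a2, Eef1aknmt, Eef2kmt, Eif2b3, Eif4a3 and Eif5a2, whose highest value on any array was 2.56, 4.1, 3.62, 4.14, 2.7 and 4.4 on the log2 scale. The genes Eif1, Eif2s1, Eif4g1 and Eef1g were not analysed here.

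The cells came from the bone marrow of male C57Bl/6 (CD45.1) mice of 10 weeks and were sorted as Lineage-, Sca-1+ and c-Kit+ from the side population, a gate on cells that efflux a DNA-binding dye. Lower-SP cells were taken from the lower and Upper-SP cells from the upper region of that gate, with 3 arrays for each; the mice carried no transgene and received no treatment that the labels name. For each fraction, 3 pools of mice were sorted on different days, so each array stood for a pool and not for 1 animal. The RNA was amplified by repeated in vitro transcription before labelling. In such bulk samples, fewer cells of a type and less RNA per cell cannot be told apart. All values below are log2 expression values, a difference is Lower-SP minus Upper-SP, and a probe set is said to have risen or fallen in Lower-SP cells if limma's test, adjusted by Benjamini and Hochberg over all 19613 probe sets, gave an adjusted p under 0.05.

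Initiation starts when eIF2, charged with GTP and initiator tRNA, joins eIF3, eIF1, eIF1A and eIF5 on the small ribosomal subunit. This complex is recruited to the capped message by eIF4F, made of the cap-binding protein eIF4E, the scaffold eIF4G and the helicase eIF4A. Stress kinases that phosphorylate eIF2, and binding proteins that sequester eIF4E, are the main brakes on the process, and eEF1A and eEF2 then deliver tRNAs and move the ribosome during elongation. Hematopoietic stem cells are known for a low rate of protein synthesis relative to most other bone marrow cells.

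Of the 110 probe sets, 34 fell in Lower-SP cells, which is 30.9% against 17.5% of all tested probe sets, and 10 rose, which is 9.09% against 10.7% of all tested probe sets. The remaining 66 did not pass. Read gene by gene through the probe set with the highest mean, 15 of the 50 genes fell (30%, against 20.7% of 9460 genes) and 6 rose (12%, against 7.05%). Counting every probe set, 21 genes had only falling calls, 4 only rising calls (Eif3a, Eif2ak3, Eif4ebp1 and Eif5b), 5 had both (Eif2s2, Eif3c, Eif4e, Eif4e3 and Eef1d) and 20 had none. No such count was made over all genes, so these numbers have no share to be set against. More probe sets give a gene more chances of a call, and 31 of the 50 genes had several. The 3 Lower-SP values lay entirely above or below the 3 Upper-SP values for 61 probe sets (55.5%, against 46.1% of all tested probe sets).

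The called differences were moderate, with sizes from 0.28 to 1.96 and a median of 0.80, and 13 of the 44 called probe sets differed by at least 2-fold. The median difference was -0.23 over the members and -0.14 over all tested probe sets, and by gene it was -0.21 over the members and -0.24 over all genes. A difference of -0.5 or below was as frequent among the members (33 probe sets, 30%) as among all tested probe sets (5836, 29.8%), and one of 0.5 or above was found for 17 members (15.5%) against 3630 in all (18.5%). The median SE of a difference was 0.206 for the members and 0.243 for all tested probe sets. The median level was 8.93 for the members and 7.23 for all tested probe sets.

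The size of the median and the balance of calls depended on how the arrays were scaled. Under cyclic loess, which removes differences between arrays that follow the level, the median became -0.03 for the members and -0.01 for all tested probe sets, and 20 members fell and 14 rose. The rising share of the called members was 41.2% under loess (53.7% of all called probe sets), against 22.7% with the deposited scaling (37.9% of all). All 10 rising calls and 20 of the 34 falling calls were kept under loess. The 14 falling calls that were lost there had differences of -0.94 to -0.28 with the deposited scaling and -0.77 to -0.19 under loess, and belonged to Eif1a, Eif1b, Eif2b2 (its brightest probe set), Eif3c (both), Eif3e, Eif3f, Eif3i, Eif4b (its brightest), Eif4e, Eif4g2 (1415863_at), Eif4h (1416941_s_at), Eif5 and Eef1d. In no setting tried did a called member change sign. The plot of the distributions sets the members against all tested probe sets under both scalings.

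**Figure D1:**
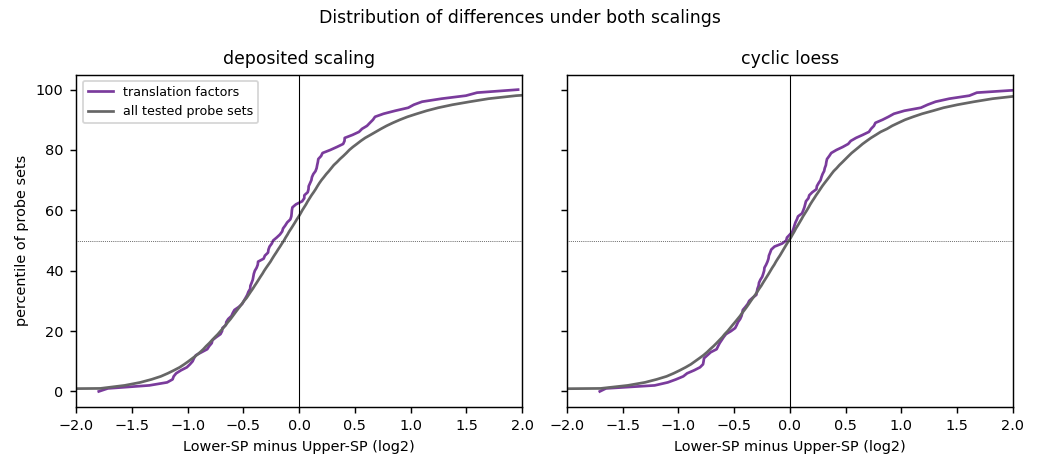
Cumulative distribution of the log2 difference (x axis, Lower-SP minus Upper-SP) by percentile of probe sets (y axis) for the 110 translation factor probe sets and all 19613 tested probe sets, with the deposited scaling and with cyclic loess. The median of the members is -0.23 with the deposited scaling and -0.03 with cyclic loess, and the curves of members and of all probe sets run close together on the falling side.

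The fractions could be told apart on these arrays as a whole: Pearson's r over tested probe sets was 0.952 to 0.991 within a fraction and 0.911 to 0.938 between fractions. Of 8 stem cell genes, 2 (25%, against 20.7% of all genes) fell in Lower-SP cells at the brightest probe set, Kit and the dye-efflux transporter Abcg2; none rose, and Hlf fell at its dimmer probe set only (-2.03). Neutrophil genes were higher in Lower-SP replicates 1 and 2: over the 7 of 11 that were tested, of which 4 rose, the mean was 10.23, 9.6 and 5.96 in Lower-SP replicates 1 to 3 and 5.47, 5.79 and 4.3 in Upper-SP replicates 1 to 3, while Mmp8, Mmp9, Elane and Mpo reached at most 4.84. The 3 tested plasma cell genes, of which Igha fell, averaged 7.64, 7.4 and 5.24 in Lower-SP cells and 8.91, 9.12 and 8.56 in Upper-SP cells. Of 6 lineage-positive cell genes only Ms4a1 was tested, and the other 5 stayed at or under 3.25. Of 7 proliferation genes, Rrm2 alone rose, and their mean was 9.81, 9.4 and 8.6 in Lower-SP cells and 8.95, 8.8 and 8.82 in Upper-SP cells. When both of these Lower-SP arrays were omitted, 7 members fell and 2 rose (6.36% and 1.82%), against 1524 and 1191 of all tested probe sets (7.77% and 6.07%), with a median difference of -0.13 (-0.09 over all). That fit holds 1 Lower-SP array, assumed to vary like the others, and the part of neutrophil and plasma cell transcripts in the members' differences was not tested further.

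The member mean was 9.08, 9.01 and 9.1 in the Lower-SP replicates and 9.28, 9.27 and 9.15 in the Upper-SP replicates. Upper-SP replicate 3 was the Upper-SP array nearest to the Lower-SP values in 30 of the 34 falling members (88.2%), against 69.5% of the 3430 falling probe sets in all, and in 7 of the 10 rising members, against 55.0% of the 2090 rising probe sets in all. Without Upper-SP replicate 1, 5 members fell and 2 rose (4.55% and 1.82%), against 781 and 885 of all tested probe sets (3.98% and 4.51%), with a median of -0.21 over the members and -0.12 over all. Of the 44 called probe sets, 7 passed in each of the 6 fits that left out 1 array: those of Eif3b, Eif3h and Eef1a1, Eif3a 1448425_at, Eif3c 1415859_at, Eif4g2 1428362_at and Eif5a 1437859_x_at.

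**Figure D2:**
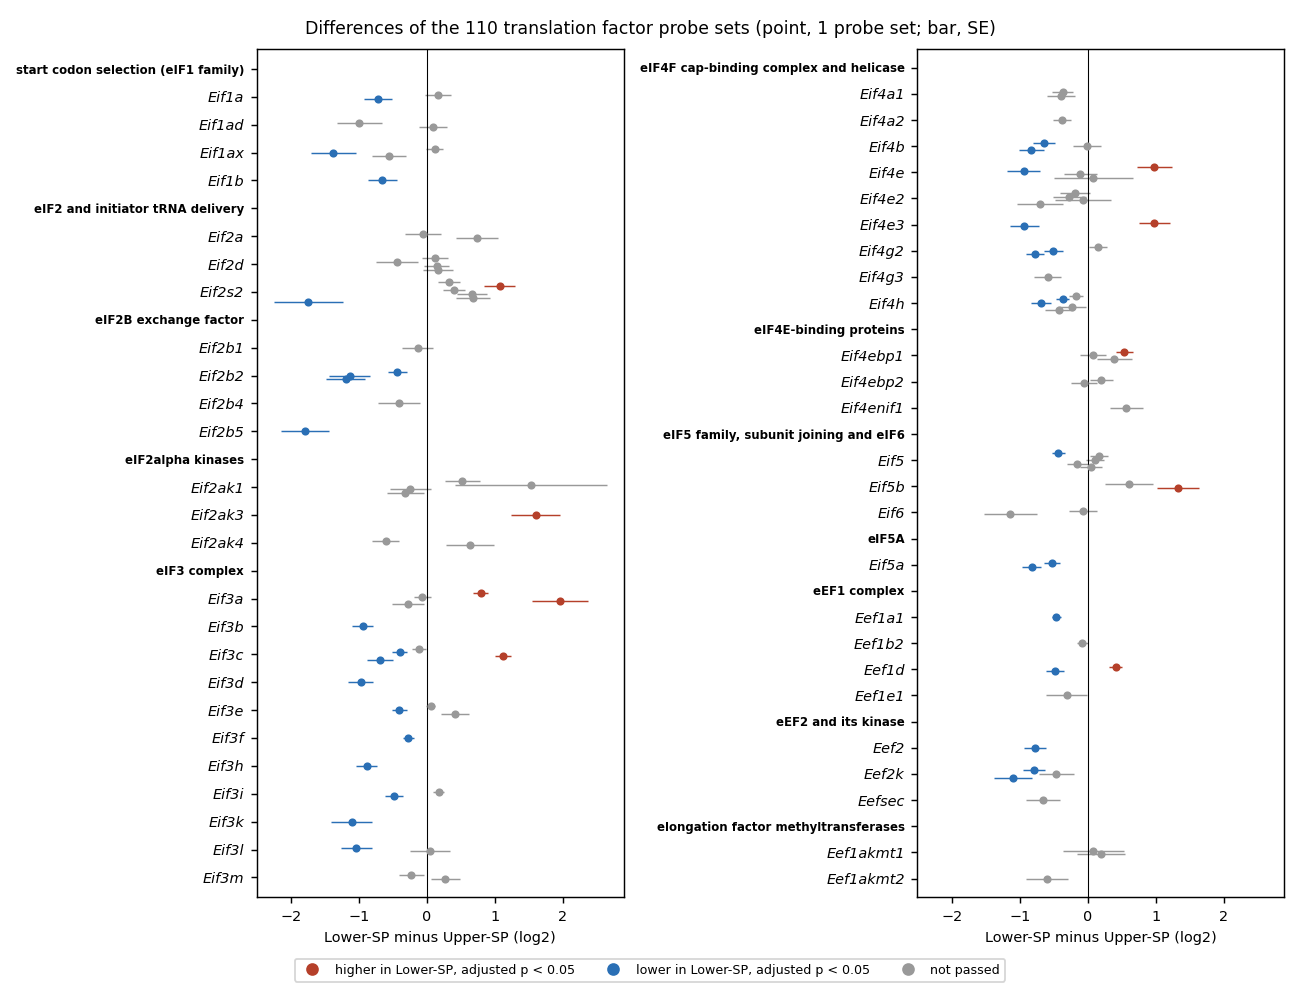
Difference of each of the 110 probe sets (x axis, Lower-SP minus Upper-SP, log2; bar, SE of the difference; colour, rising, falling or not passed), grouped by the role of the factor. Calls on the falling side are found in most role groups. The eIF3 complex (10 of 22 probe sets) and the eIF4F group (8 of 25) hold the most and are also the largest groups. Over all tested probe sets, 17.5% fell. The single largest rise is Eif3a at 1.96.

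Promoter sequence was taken for members that moved, to show which short elements stood beside their starts; the genes printed were chosen after their values were seen. RefSeq promoters (build GRCm38.p6) were matched to 40 of the 50 genes and searched on both strands from 250 bases before to 30 bases after the start for TATAAA, the E-box CACGTG and the ETS-type site CCGGAAG, and on the sense strand for a pyrimidine tract at the start, as carried by many translation factor messages. The E-box was found in 8 of 40 members (20.0%) and in 7.58% of 17492 promoters; the ETS-type site in 13 (32.5%) and in 11.4%; TATAAA in 3 (7.5%) and in 13.0%; and the tract in 1 (2.5%) and in 2.17%. The tract was counted only where it began exactly at the first listed start, so a tract beginning some bases away was not counted. Its shares therefore do not show how many genes carry a tract. Among the 16 matched genes with only falling calls, counting every probe set, 6 held the E-box, 5 the ETS-type site and 3 TATAAA. Printed 5′ to 3′ on the gene's strand, with matches in capitals and no match overlapping another, are 80 bases before to 30 after the start of Eef2 at chr10:81176551-81176660 (plus strand), Eif3f at chr7:108934335-108934444 (plus strand), Eif3l at chr15:79075143-79075252 (plus strand), Eif3d at chr15:77970795-77970904 (minus strand) and Eif2b2 at chr12:85219401-85219510 (plus strand), all from genes that fell, and of Eif3a at chr19:60790664-60790773 (minus strand), which rose.
Eef2: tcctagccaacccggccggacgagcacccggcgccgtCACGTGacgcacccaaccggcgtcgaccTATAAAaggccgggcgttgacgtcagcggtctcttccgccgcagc
Eif3f: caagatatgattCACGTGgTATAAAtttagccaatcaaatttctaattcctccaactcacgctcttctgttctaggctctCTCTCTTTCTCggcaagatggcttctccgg
Eif3l: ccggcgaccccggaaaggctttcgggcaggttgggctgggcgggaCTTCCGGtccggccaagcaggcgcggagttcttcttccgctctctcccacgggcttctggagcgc
Eif3d: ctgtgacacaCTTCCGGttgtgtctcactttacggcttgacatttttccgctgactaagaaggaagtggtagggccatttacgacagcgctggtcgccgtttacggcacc
Eif2b2: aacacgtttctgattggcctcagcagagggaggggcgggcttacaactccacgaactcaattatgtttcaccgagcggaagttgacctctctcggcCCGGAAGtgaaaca
Eif3a: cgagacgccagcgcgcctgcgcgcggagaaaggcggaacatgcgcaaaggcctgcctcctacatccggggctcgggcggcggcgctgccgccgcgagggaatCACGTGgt
The E-box stood both in Eef2 and Eif3f, which fell, and in Eif3a, which rose. The ETS-type site stood in Eif3l, Eif3d and Eif2b2. Eif3f also carried the pyrimidine tract. A match describes these letters and was not tested against the expression differences.

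In the eIF1 group, 3 of 8 probe sets fell and none rose, against 17.5% and 10.7% of all tested probe sets, with a median difference of -0.61. The factors eIF1 and eIF1A keep the small subunit scanning until a start codon is found. Eif1ad, also placed in this group, had no call at 2 probe sets (-1.0 and 0.09). Eif1ax, the X-linked gene for eIF1A, had 6.41, 5.58 and 6.28 in Lower-SP cells, against 7.53, 7.88 and 6.97 in Upper-SP cells, at its probe set 1449576_at. All 3 Lower-SP values lay below all Upper-SP values, a difference of -1.38 ± 0.33 (SE; adjusted p = 0.0195). Its brightest probe set did not pass, at 11 ± 0.10 in Lower-SP and 10.89 ± 0.12 in Upper-SP cells (SD, n = 3 each). Eif1a fell at 1 of 2 probe sets (-0.72 ± 0.21, adjusted p = 0.0383) and Eif1b, close in sequence to Eif1, at its only one (-0.66 ± 0.21, adjusted p = 0.0497).

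The eIF2 group delivers the initiator tRNA, and 10 of its 12 probe sets did not pass, with a median of 0.24. Eif2s2, which encodes the beta subunit of eIF2, was called in both directions. Its probe set 1448820_a_at rose, with 11.33, 11.12 and 10.73 in Lower-SP cells and 9.79, 9.77 and 10.41 in Upper-SP cells (1.07 ± 0.23, adjusted p = 0.0134). Its probe set 1448819_at fell, with 5.56, 4.05 and 3.67 in Lower-SP cells and 6.63, 6.32 and 5.58 in Upper-SP cells (-1.75 ± 0.51, adjusted p = 0.0377). In neither did the fractions overlap, although at the second Lower-SP replicate 1 (5.56) nearly met Upper-SP replicate 3 (5.58). The other 4 Eif2s2 probe sets, the brightest included, differed by 0.32 to 0.67 without passing; 3 of the 4 passed under cyclic loess. Eif2a and Eif2d, which take part in alternative routes of tRNA delivery, had no call at any of their probe sets.

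The exchange factor eIF2B reloads eIF2 with GTP. Of its 6 probe sets 4 fell and none rose, against 17.5% and 10.7% of all tested probe sets, with a median of -0.79. Of these calls, 3 belonged to Eif2b2. Under cyclic loess 3 probe sets fell, and with Lower-SP replicates 1 and 2 left out the median was -0.46. Eif2b5, the catalytic epsilon subunit, had 5.13, 4.3 and 5.54 in Lower-SP cells, against 7.08, 6.8 and 6.48 in Upper-SP cells. The fractions were well apart, with a 3.48-fold lower level in Lower-SP cells (-1.80 ± 0.35, adjusted p = 0.0103). Eif2b2, the beta subunit, fell at all 3 of its probe sets. At 1437428_x_at it had 5.44, 4.72 and 5.58 in Lower-SP cells, against 6.2, 6.64 and 6.5 in Upper-SP cells (-1.20 ± 0.29, adjusted p = 0.0208). At 1451136_a_at the difference was -1.14 ± 0.30, and at the brightest probe set it was -0.44 ± 0.14. Eif2b1 and Eif2b4 did not pass (-0.14 and -0.41).

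Of the kinases that phosphorylate eIF2 under stress, Eif2ak3 (PERK, which responds to unfolded proteins in the endoplasmic reticulum) rose. It had 6.52, 6.31 and 6.56 in Lower-SP cells, against 5.18, 5.34 and 4.06 in Upper-SP cells, with no overlap and a 3.03-fold higher level in Lower-SP cells (1.60 ± 0.36, adjusted p = 0.0156). Eif2ak1, the heme-regulated kinase, had differences from -0.32 to 1.53 over 4 probe sets, and Eif2ak4 (GCN2, which senses uncharged tRNA) had -0.61 and 0.63; none of these passed. The Upper-SP values of Eif2ak1 at 1453902_at ran from 2.75 to 7.46, the widest spread within a fraction among the members.

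The eIF3 complex, the multi-subunit platform that joins the small subunit to eIF4G and the message, had the most calls. Of its 22 probe sets, 10 fell and 3 rose, against 17.5% and 10.7% of all tested probe sets, with a median of -0.26. By gene, counting every probe set, 8 of 11 subunits had only falling calls, Eif3a only rising ones, Eif3c both and Eif3m none. Among these 8, Eif3e and Eif3i fell only at a dimmer probe set. Under cyclic loess 5 probe sets fell and 4 rose. Falling calls that also passed under loess were those of Eif3b, Eif3d, Eif3h, Eif3k and Eif3l.

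Eif3d, a subunit that can bind the cap itself, had 10.41, 10.27 and 10.73 in Lower-SP cells, against 11.65, 11.55 and 11.14 in Upper-SP cells (-0.98 ± 0.18, adjusted p = 0.00884). Eif3l, with 9.8, 9.57 and 10.16 in Lower-SP cells and 11.06, 11.14 and 10.45 in Upper-SP cells, fell by 1.04 on the log2 scale (SE 0.23, adjusted p = 0.0154). Eif3k, its partner in the complex, had 10.26, 10.33 and 10.66 in Lower-SP cells, against 11.84, 11.96 and 10.79 in Upper-SP cells (-1.11 ± 0.30, adjusted p = 0.0289). In all 3 genes the fractions did not overlap and Upper-SP replicate 3 was the nearest to the Lower-SP values. Eif3b, a scaffold subunit, averaged 9.80 ± 0.06 in Lower-SP and 10.75 ± 0.26 in Upper-SP cells (-0.95, adjusted p = 0.00663), and Eif3h averaged 11.98 ± 0.07 in Lower-SP and 12.86 ± 0.29 in Upper-SP cells (-0.89, adjusted p = 0.00653; SD, n = 3 each). Smaller decreases were called for Eif3i (1416233_at, -0.49), Eif3e (1460432_a_at, -0.41) and Eif3f (-0.28, the brightest gene of the group). The other Eif3e probe sets differed by 0.05 and 0.41, and the brightest of Eif3i by 0.17, without passing.

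Eif3a, the largest subunit and a scaffold of the complex, rose at 2 of 4 probe sets. At 1416661_at it had 7.72, 7.33 and 7.39 in Lower-SP cells, against 5.57, 4.63 and 6.34 in Upper-SP cells, a difference of 1.96 ± 0.41 (adjusted p = 0.0132). At 1448425_at, its brightest, it had 13.25, 13.44 and 13.16 in Lower-SP cells, against 12.44, 12.39 and 12.66 in Upper-SP cells (0.79 ± 0.11, adjusted p = 0.00436). Both probe sets separated the fractions on every array. The other probe sets differed by -0.07 and -0.28 and did not pass.

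Eif3c, another core scaffold subunit, had 1 rising and 2 falling probe sets. The rising one, 1415859_at, had 11.41, 11.55 and 11.29 in Lower-SP cells, against 10.39, 10.23 and 10.27 in Upper-SP cells, and had the smallest adjusted p of all members (1.12 ± 0.12, adjusted p = 0.00224). The falling ones were 1415858_at, with 9.59, 9.37 and 9.76 in Lower-SP cells and 10.42, 10.45 and 9.93 in Upper-SP cells (-0.69 ± 0.19, adjusted p = 0.031), and 1456083_x_at, with 11.89, 11.82 and 11.8 in Lower-SP cells and 12.39, 12.26 and 12.08 in Upper-SP cells (-0.40 ± 0.11, adjusted p = 0.0317). None of the 3 overlapped between fractions. The brightest probe set averaged 12.38 ± 0.05 in Lower-SP and 12.50 ± 0.14 in Upper-SP cells (SD, n = 3 each) and did not pass. What sets apart probe sets of 1 gene that move in opposite directions was not tested.

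**Figure D3:**
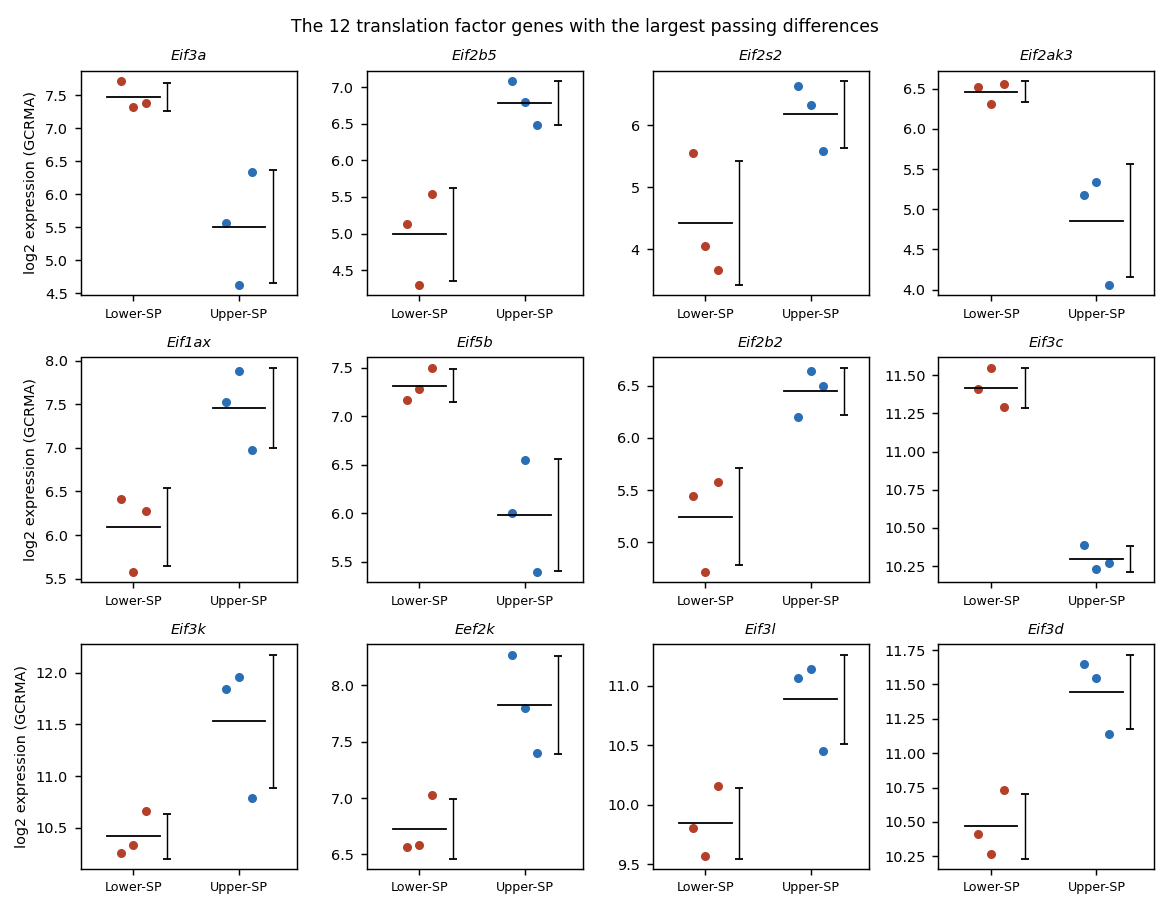
Log2 expression (y axis) on each array in Lower-SP (left) and Upper-SP (right) cells for the 12 genes with the largest passing differences, each at its probe set with the largest call (point, 1 array; line, mean; bar, SD). Eif3a, Eif2ak3, Eif5b and Eif3c are higher in all 3 Lower-SP arrays, and the other 8 genes, among them Eif2b5 (5.13, 4.3 and 5.54 in Lower-SP; 7.08, 6.8 and 6.48 in Upper-SP), are lower.

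The eIF4F group of cap-binding, scaffold and helicase proteins had 8 falling and 2 rising calls among 25 probe sets. The shares of all tested probe sets were 17.5% and 10.7%, and the median of the group was -0.37. Eif4e, the cap-binding protein itself, was called in both directions. Its brightest probe set 1444010_at had 8.8, 8.59 and 8.29 in Lower-SP cells, against 7.7, 7.13 and 7.92 in Upper-SP cells (0.98 ± 0.26, adjusted p = 0.0268). Its probe set 1450908_at had 7.54, 7.29 and 6.76 in Lower-SP cells, against 8.2, 8.21 and 8.02 in Upper-SP cells (-0.94 ± 0.24, adjusted p = 0.025). Each separated the fractions, while the other 2 Eif4e probe sets overlapped, with differences of -0.11 and 0.08. Eif4e3, a further cap-binding family member, showed the same split: 1417978_at had 11, 11.3 and 11.42 in Lower-SP cells and 10.36, 9.78 and 10.64 in Upper-SP cells (0.98 ± 0.23, adjusted p = 0.0188), and 1417977_at had 6.67, 6.92 and 6.45 in Lower-SP cells and 7.5, 7.76 and 7.58 in Upper-SP cells (-0.93 ± 0.22, adjusted p = 0.0181). Eif4e2, a cap-binding protein that acts as a repressor, had no call at 4 probe sets.

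Eif4g2, an eIF4G relative without the eIF4E-binding region, fell at 2 of 3 probe sets, by 0.78 (1428362_at, adjusted p = 0.00612) and by 0.51 (1415863_at, adjusted p = 0.0331) on the log2 scale. Its brightest probe set averaged 14.15 ± 0.15 in Lower-SP and 13.99 ± 0.22 in Upper-SP cells and did not pass. The helicase cofactors fell at 2 of 3 probe sets of Eif4b (-0.83 and -0.64) and at 2 of 5 of Eif4h (-0.69 and -0.37). The helicases Eif4a1 (-0.37 and -0.39, adjusted p = 0.105 and 0.187) and Eif4a2 (-0.38, adjusted p = 0.0684) and the scaffold Eif4g3 (-0.59, adjusted p = 0.0555) were below the Upper-SP mean without passing. Of the eIF4E-binding proteins, Eif4ebp1, a repressor released from eIF4E by mTOR signalling, rose at its brightest probe set, with 10.49 ± 0.07 in Lower-SP and 9.95 ± 0.08 in Upper-SP cells (SD, n = 3 each; 0.54, adjusted p = 0.0176). Its other 2 probe sets (0.08 and 0.39), those of Eif4ebp2 (0.20 and -0.06) and that of Eif4enif1, the eIF4E transporter (0.57), did not pass.

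**Figure D4:**
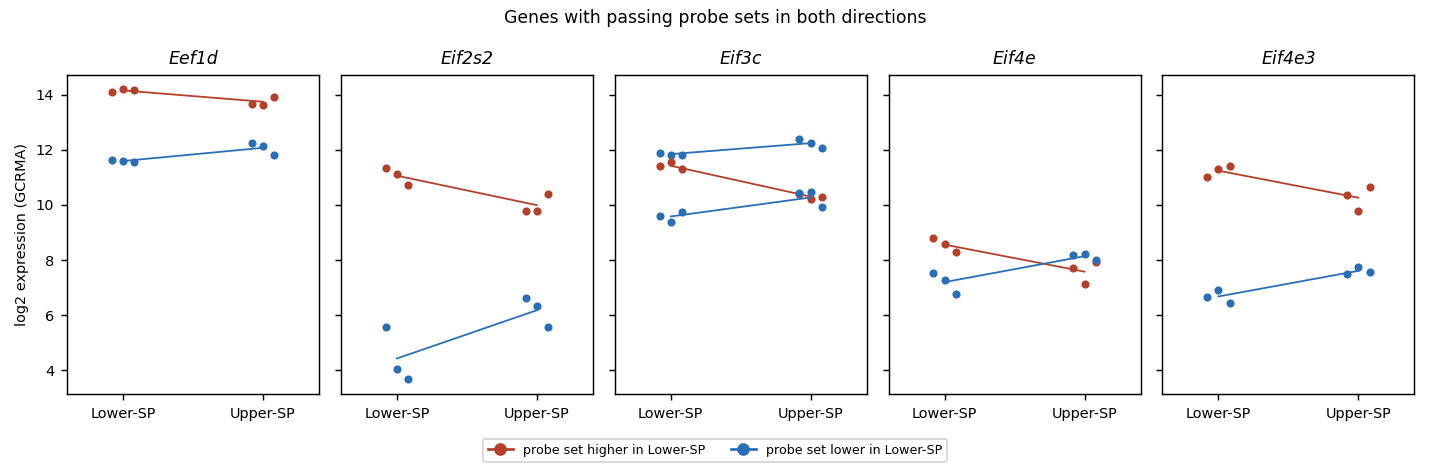
Log2 expression (y axis) on each array in Lower-SP (left) and Upper-SP (right) cells for the 5 genes with called probe sets in both directions (Eef1d, Eif2s2, Eif3c, Eif4e and Eif4e3), with rising and falling probe sets in different colours and a line joining the means of each probe set. In every panel the rising and the falling probe sets each separate the 3 Lower-SP from the 3 Upper-SP arrays. Only called probe sets are shown, and 46.1% of all tested probe sets separate the arrays in this way. For Eif4e the differences are 0.98 and -0.94.

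At subunit joining, Eif5b, the GTPase that brings in the large ribosomal subunit, rose at 1434605_at, with 7.17, 7.28 and 7.5 in Lower-SP cells, against 6.0, 6.55 and 5.4 in Upper-SP cells (1.33 ± 0.31, adjusted p = 0.0192). The fractions did not overlap there; at its brightest probe set they did (0.61 ± 0.35, not passed). Eif5, which makes eIF2 hydrolyse its GTP at the start codon, fell at its brightest probe set (12.77 ± 0.09 in Lower-SP and 13.20 ± 0.04 in Upper-SP cells; SD, n = 3 each; adjusted p = 0.0118), while its other 4 probe sets differed by -0.15 to 0.17. Eif6, which holds the large subunit free until joining, had -0.07 and -1.14 and no call. The median of the group was 0.05 and became -0.01 without Lower-SP replicates 1 and 2.

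The elongation factors fell at 7 of their 12 probe sets, with Eif5a counted among them, and 1 rose. Over all tested probe sets, 17.5% fell and 10.7% rose. Eef1a1, which delivers aminoacyl-tRNA, averaged 14.71 ± 0.02 in Lower-SP and 15.16 ± 0.08 in Upper-SP cells (-0.46 ± 0.07 SE, adjusted p = 0.00459). Eef2, which moves the ribosome by a codon and whose promoter is printed above, averaged 13.28 ± 0.10 in Lower-SP and 14.06 ± 0.33 in Upper-SP cells (-0.78 ± 0.16 SE, adjusted p = 0.0121). The means are followed by SD, with n = 3 each, and neither gene overlapped between fractions.

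Eef2k, the kinase that inactivates eEF2, fell with its substrate. At 1449013_at it had 6.57, 6.58 and 7.03 in Lower-SP cells, against 8.27, 7.8 and 7.4 in Upper-SP cells (-1.10 ± 0.28, adjusted p = 0.0237), with all Lower-SP values the lower ones. Its brightest probe set also fell (-0.79 ± 0.16, adjusted p = 0.0117) and the remaining one did not pass (-0.46). Eif5a, which keeps ribosomes moving through difficult sequences, fell at both probe sets, by 0.52 (adjusted p = 0.0188) and by 0.82 (adjusted p = 0.00738) on the log2 scale.

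Eef1d, a subunit of the factor that recharges eEF1A, was called in both directions. Its brightest probe set 1439439_x_at had 14.08, 14.2 and 14.16 in Lower-SP cells, against 13.67, 13.63 and 13.92 in Upper-SP cells (0.41 ± 0.10, adjusted p = 0.0193). Its probe set 1449506_a_at had 11.62, 11.6 and 11.55 in Lower-SP cells, against 12.24, 12.15 and 11.82 in Upper-SP cells (-0.48 ± 0.13, adjusted p = 0.0299). Both separated the fractions. Eef1b2, another subunit of that factor (-0.08), Eef1e1, a protein of the tRNA synthetase complex (-0.31), Eefsec, the selenocysteine elongation factor (-0.66), and the methyltransferases Eef1akmt1 (0.08 and 0.20) and Eef1akmt2 (-0.60) did not pass.

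The products of Eif5a and Eef2 each carry a unique modification, hypusine on eIF5A and diphthamide on eEF2. Of 7 tested genes that make them, 6 fell and none rose at the brightest probe set (85.7% and 0%, against 20.7% and 7.05% of all genes). Their median difference was -1.11 and stayed between -1.02 and -0.92 under the 3 other scalings. Dhps, the first hypusine enzyme, had 7.73, 7.82 and 8.03 in Lower-SP cells, against 8.91, 8.68 and 9.33 in Upper-SP cells, and fell at both probe sets (-1.11 ± 0.22, adjusted p = 0.0101, at the brightest; -1.69 at the other). Dohh, the second, fell by 0.83 on the log2 scale (adjusted p = 0.0304). For diphthamide, Dph3 (-1.70 ± 0.50, adjusted p = 0.0385) and Dph2 (-1.50 ± 0.37, adjusted p = 0.0219) fell. So did Dph6 (-1.45 ± 0.31, adjusted p = 0.0134) and Dph1 (-0.96 ± 0.29, adjusted p = 0.0435). Dph5 did not pass at either probe set (-0.27 and 0.71), and Dph7 was not tested (highest value 2.83). The Lower-SP means of Dph2 and Dph1, 4.1 and 4.53, lay near log2 4, the level of the filter. Under cyclic loess the calls of Dhps, Dph2 and Dph6 remained, while Dph3 (-1.53, adjusted p = 0.0509), Dph1 (-0.92, adjusted p = 0.0541) and Dohh (-0.66, adjusted p = 0.0551) did not pass, and with both of the first Lower-SP arrays omitted 1 of the 7 passed, with a median of -0.90.

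**Figure D5:**
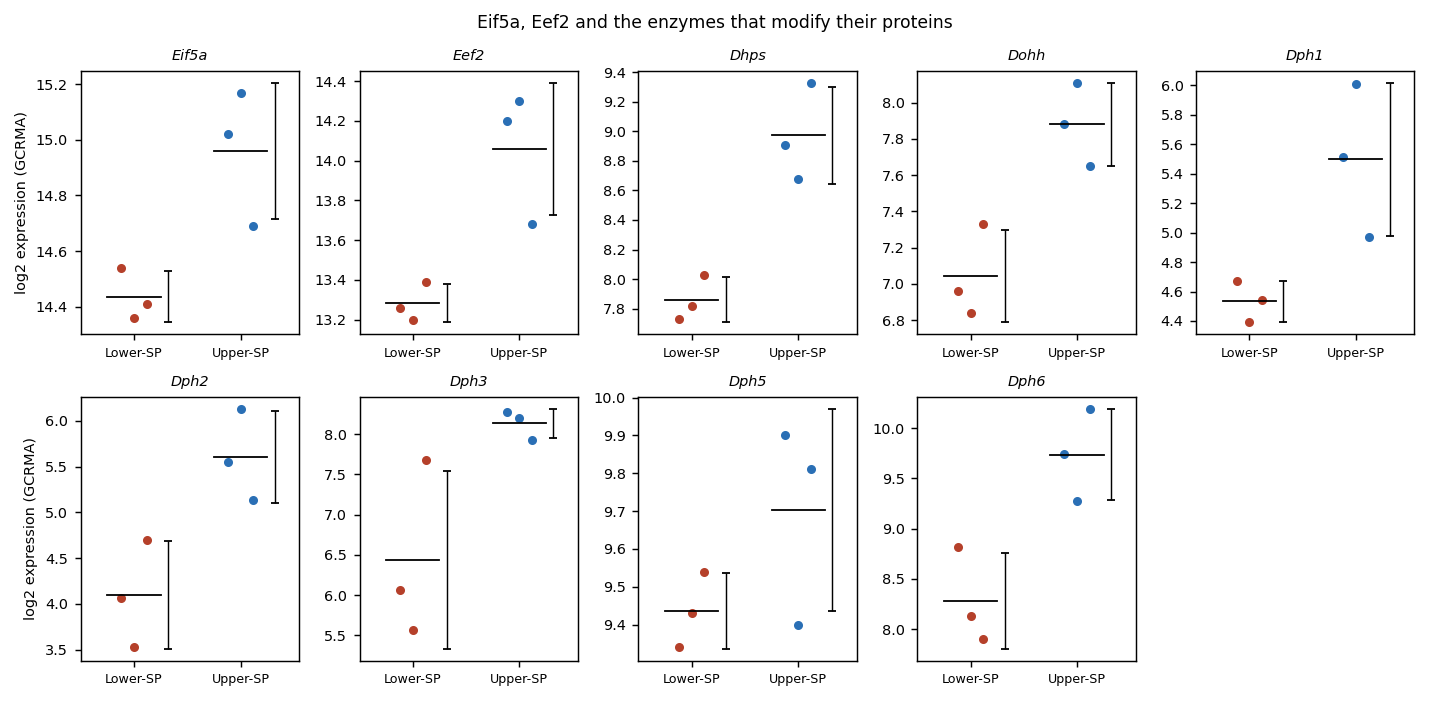
Log2 expression (y axis) on each array in Lower-SP (left) and Upper-SP (right) cells for Eif5a, Eef2 and the genes whose products add hypusine or diphthamide to their proteins (point, 1 array; line, mean; bar, SD). Dhps, Dohh, Dph1, Dph2, Dph3 and Dph6, like Eif5a and Eef2, are lower on all 3 Lower-SP arrays than on any Upper-SP array. The fractions overlap for Dph5.

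Over all 80 tested genes that work beside the factors, each read through its brightest probe set, 21 fell and 5 rose (26.2% and 6.25%, against 20.7% and 7.05% of all genes), with a median of -0.34, against -0.24 over all genes. Among regulators of the factors, Nck1, an adaptor that also recruits a phosphatase to eIF2, rose at all 3 probe sets (2.70 ± 0.32, adjusted p = 0.00257, at the brightest). Ppp1r15a (-0.78, adjusted p = 0.0305) and Ppp1r15b (-0.57, adjusted p = 0.0205), which target that phosphatase to eIF2, fell. Under cyclic loess these 2 genes did not pass (adjusted p = 0.0623 and 0.0801). Rps6kb2, an S6 kinase, also fell, and its level was at least 2.29-fold lower in Lower-SP cells (adjusted p = 0.0197). Impact, an inhibitor of GCN2, had a rising probe set (0.92) and a falling one (-1.15), and Rptor, the mTOR partner that recruits substrates, a falling one (-0.86) and a rising one (3.12). In this list of 11 genes, 4 fell and 2 rose (36.4% and 18.2%, against 20.7% and 7.05% of all genes).

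Of 13 cap and poly(A) binding genes, 3 fell at the brightest probe set: the helicase Dhx29 (-1.37), the poly(A)-binding protein Pabpc4 (-0.53) and the inhibitor Paip2 (-0.36). Pabpc1 did not pass there (-0.16), but its other probe set rose (0.70). Under cyclic loess the differences of Dhx29, Pabpc4 and Paip2 were -1.33, -0.32 and -0.22 and did not pass (adjusted p = 0.052, 0.144 and 0.09). Among 10 start-site and recycling genes, Bzw2, an eIF5 mimic, fell (-1.19, adjusted p = 0.00402), while its relative Bzw1 (0.54) and the ribosome-associated Abcf1 (0.53, with another probe set that fell) rose. Among 9 termination and rescue genes, the release factor Gspt2 fell (-1.12) and the quality-control factor Nemf rose at both probe sets (0.96 and 0.88); the rescue factor Gtpbp2 (-0.35, not passed) fell only at a dimmer probe set. Of 10 mitochondrial translation factors, Gfm1 (-1.47) and Gfm2, at least 1.47-fold lower in Lower-SP cells, fell at the brightest probe set. Tufm, a further one, did not pass there (-0.48) but fell at 1 of its 3 probe sets. Of 20 cytosolic tRNA synthetase genes, Vars (-1.49, adjusted p = 0.00444), Kars (-0.94), Aimp1 (-0.75) and Aimp2 (-0.73) fell, and none rose at the brightest probe set. Aimp2 did not pass under cyclic loess (-0.53, adjusted p = 0.136). Farsb, Qars and Sars fell only at dimmer probe sets. The falling shares of the cap, start-site, termination, mitochondrial and synthetase lists were 23.1%, 10%, 11.1%, 20% and 20%, against 20.7% of all genes. Their rising shares were 0%, 20%, 11.1%, 0% and 0%, against 7.05% of all genes.

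The calls were also counted by the kind of sequence a probe set was annotated to. Of 19 member probe sets annotated to a RefSeq mRNA, 7 fell and 1 rose (36.8% and 5.26%), with a median of -0.37, and of 91 annotated to another sequence or to none 27 fell and 9 rose (29.7% and 9.89%), with a median of -0.18. These shares were not tested against each other. Over all tested probe sets the same split gave 748 falling and 97 rising of 2800 with a RefSeq mRNA (median -0.39), and 2682 falling and 1993 rising of 16813 others (median -0.10). The part of this in the opposite calls within Eef1d, Eif2s2, Eif3c, Eif4e and Eif4e3 was not tested.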

How the data were processed

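Expression was measured on 3 Lower-SP and 3 Upper-SP arrays. The deposited values are log2 expression values that the authors made with GCRMA after GCOS 1.0, per the submitters' processing notes; parameters and a genome build are not given in the sources used here. Of 45101 probe sets, 64 controls were left out, and symbols came from the array's annotation (34945 with 1 symbol, 932 with several, 9160 with none; all 148 candidate members were matched by Entrez ID). No pair of arrays was identical, and 19317 to 19666 probe sets per array were above log2 4.

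Probe sets above log2 4 on at least 3 of 6 arrays (19613; 9460 genes) were fitted in R 4.3.3 with limma 3.58.1 (lmFit on group, eBayes with a trend, residual df 4, prior df 3.8, two-sided), with Benjamini-Hochberg adjustment over all and a threshold of 0.05; the script was tested on simulated data. A gene was read through its brightest probe set (highest mean). Where a group mean lay under 4, arrays under 4 were set to 4 and the fold is a lower bound. The members, roles and lists were chosen with earlier results of these data known. Named were every member gene with a call, up to 30 by size (values on every array for the 12 largest and for opposite calls), fixed core factors, the brightest gene of each role, and up to 4 called genes of each partner list. The replicate numbers were not taken to pair the arrays. Alternatives were 3 scalings, 2 filters, 2 variance models, a replicate block, gene means, omission of _x_at and _s_at probe sets, and arrays left out. The number of arrays limits the precision. Figures were drawn with matplotlib 3.10.9.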

Additional observations from a re-analysis of the deposited data

How the results depend on the processing

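The reported counts were 10 rising and 34 falling member probe sets, 6 rising and 15 falling member genes, and 5 rising and 21 falling partner genes; centring, quantile normalization, the filter at log2 6 and the omission of _x_at and _s_at probe sets kept each within 1.5 times. Omitting Lower-SP replicates 1 and 2 at once, the 6 counts, in that order, were 2, 7, 1, 3, 2 and 7; with no filter on low values they were 4, 13, 3, 8, 3 and 6; with unmoderated statistics they were 3, 7, 2, 3, 3 and 6. Cyclic loess gave 20 falling member probe sets and 8 rising and 12 falling partner genes. Without a trend, 21 member probe sets and 9 member genes fell and 3 partner genes rose. With the mean of all probe sets of a gene, 3 member genes rose. With the replicate block, 21 member probe sets fell, 2 partner genes rose and 8 fell. The cause was not tested for any of these changes in the counts. The labels do not say whether a replicate number marks a shared pool or day. Deviations from the group means correlated at -0.051, -0.029 and -0.023 for replicates 1, 2 and 3, and no array correlated best with its own number. Correlations over all tested probe sets cannot decide whether the arrays were paired. Leaving out 1 array at a time gave 2 to 11 rising and 5 to 40 falling member probe sets, 1 to 6 rising and 3 to 20 falling member genes, and 2 to 6 rising and 3 to 23 falling partner genes, with the lowest values without Upper-SP replicate 1 (2 rising, 5 falling). The refits called 23, 12 and 31 falling member probe sets when Lower-SP replicate 1, 2 or 3 was absent, and 10 and 40 when Upper-SP replicate 2 or 3 was, calls gained in the refit included.

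Over all 110 member probe sets no called difference reversed in any setting, while uncalled ones did: 12 under cyclic loess, 7 under centring, 7 under quantile normalization, 13 without Lower-SP replicates 1 and 2, and 2 to 6 with 1 array left out. Examples were Eif1ax 1419736_a_at (-0.0097) and Eif4g2 1452758_s_at (-0.0037) without Lower-SP replicates 1 and 2. Eif3c 1456374_x_at reversed under loess (0.04) and quantile normalization (0.01). Eif6 1427578_a_at did so under loess (0.13), centring (0.02), quantile normalization (0.08) and without Lower-SP replicate 3 (0.16), with -0.22 without replicate 1. Eef1b2 did so under loess (0.05), centring (0.0063) and quantile normalization (0.02). Under loess, Eif3a 1416659_at (0.15), Eif2b1 (0.03), Eif4e 1423220_at (0.06), Eif4ebp2 1417084_at (0.12) and Eif5 1454663_at (0.06) also reversed. With 3 arrays a fraction, small differences could not be resolved, at bright probe sets as well as dim ones.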
